A study of Mus musculus with 12 samples.

Results

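Cathepsins and the glycoproteins of the lysosomal membrane were followed in 4 kinds of mouse cells. The 10 genes were Ctsb, Ctsc, Ctsd, Ctsk, Ctsl, Ctss, Ctsz, legumain (Lgmn), Lamp1 and Lamp2. They were named with earlier results of these data known, and their probes were taken by gene symbol from the platform annotation. They had 20 of the 45281 probes on an Illumina mouse bead array. Of these probes 16 passed a filter on dim signals, and 8 of the 10 genes were therefore among the 10096 genes tested. Ctsd and Ctss had 1 probe each, and neither passed.

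Each of the 4 groups had 3 arrays. ESC were embryonic stem cells from the OG2 strain, a mix of female and male cells. MEF were male embryonic fibroblasts, also OG2. The iPS4F cells were male induced pluripotent stem cells made with Oct4, Sox2, Klf4 and c-myc. The iPS6F cells were male too and had received Brg1 and Baf155, both subunits of the BAF chromatin remodelling complex, in addition to those 4 factors. The labels give no strain for the iPS cells, do not say whether a group was 1 clone or line, and do not say whether the arrays of a group came from separate cultures. Every p-value therefore measures the spread between these arrays, which may be technical.

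Lysosomes are acid compartments in which proteins, lipids and sugars are broken down. Cathepsins are their proteases. They are made as inactive precursors, carried to the lysosome largely by mannose 6-phosphate receptors and switched on by the low pH, and most of those studied here are cysteine proteases, while cathepsin D is an aspartic protease. Lamp1 and Lamp2 are heavily glycosylated proteins that line the inner face of the lysosomal membrane, and many lysosomal genes are known to be driven by TFEB and its relatives through a DNA element with the core CACGTG.

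The mean raw intensity of an array ran from 139 to 237, and between 14107 and 17741 probes were detected. Levels below are normalized log2 intensities, and undetected probes sat near 4 on this scale. A gene was called where its adjusted p was under 0.05. The labels fitted the summed signals of their markers. All 17 fibroblast markers tested were detected on every MEF array, with a summed signal of 52600 to 59200 there against 103 to 201 on the other arrays. All 16 pluripotent cell markers were detected on every ESC, iPS4F and iPS6F array, with a summed signal of 28900 to 36900 against 246 to 342 on MEF arrays. Detection itself is a weak check, since a tested gene needed detection on every array of some group. A fibroblast marker undetected in the other groups was therefore bound to be detected on every MEF array. Likewise, a pluripotent cell marker undetected in MEF was bound to be detected throughout some other group, though not in all of them.

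Most of the tested genes were higher in fibroblasts than in embryonic stem cells. The 7 genes Ctsb, Ctsk, Ctsl, Ctsz, Lgmn, Lamp1 and Lamp2 fell from MEF to ESC and Ctsc rose, so that all 8 tested genes were called. The background was high, since 76.5% of all genes tested were called in this comparison, 40.3% as higher in ESC and 36.3% as lower. The median difference of the 8 genes was -1.03 on the log2 scale against 0.08 over all genes. In iPS4F against MEF 7 of the 8 were called, 1 higher and 6 lower, beside 78.9% of all genes, 39.8% higher and 39.1% lower. In iPS6F against MEF 7 were called, again 1 higher and 6 lower, beside 78.6% of all genes, 39.2% higher and 39.4% lower. The medians of the 8 genes in these comparisons were -1.78 and -1.45, against 0.04 and 0.03 over all genes. The 3 comparisons share the MEF arrays. In bulk RNA, fewer cells of a type and less RNA per cell cannot be told apart.

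**Figure D1:**
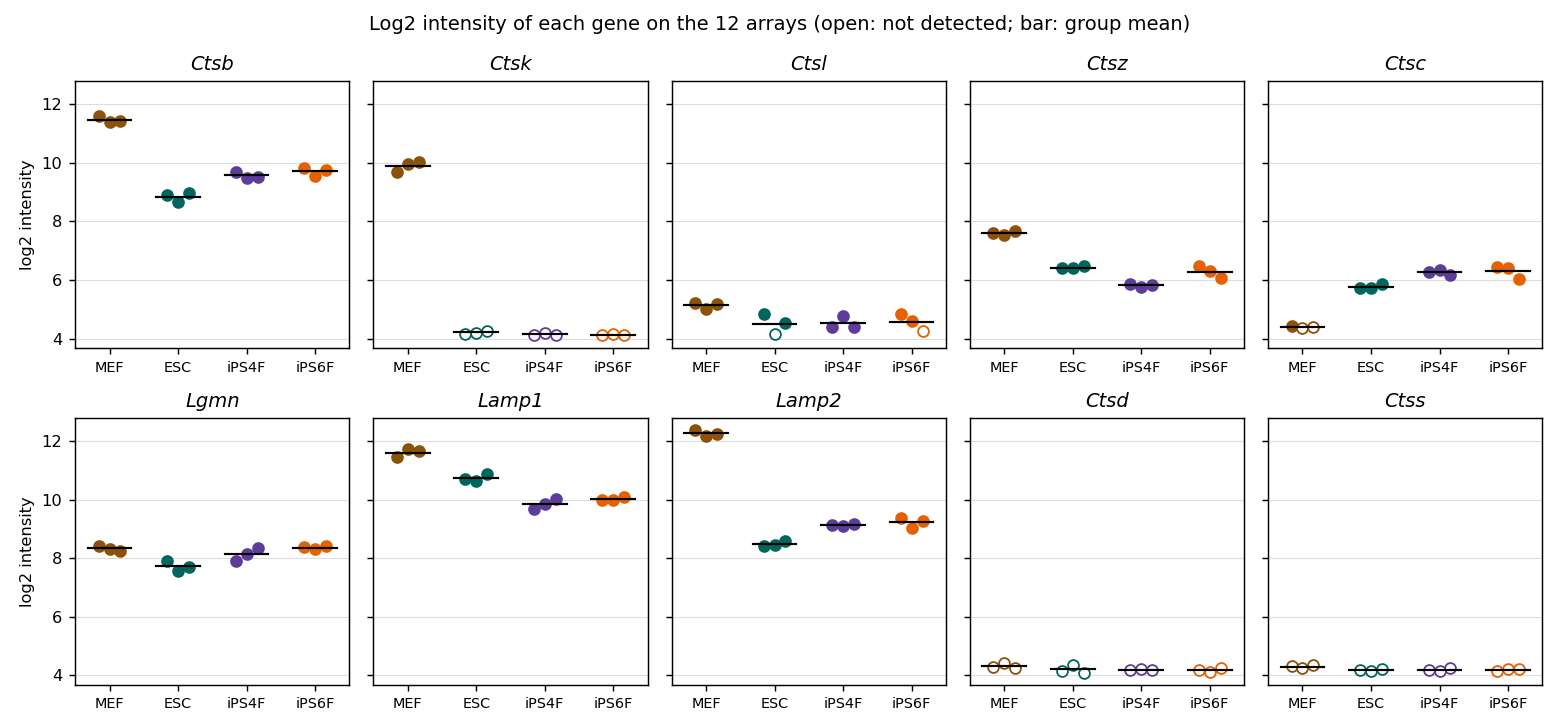
Normalized log2 intensity (vertical axis) of each gene on each of the 12 arrays, by group, from the probe that represents the gene; open circles mark arrays on which the probe was not detected and bars mark the group mean. Ctsk lies between 9.68 and 10.03 in MEF and at 4.12 to 4.26 on the other 9 arrays, Ctsc is the one gene lowest in MEF, and Ctsd and Ctss are open circles throughout.

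Sequence before the start of the gene was available for 9 of the 10 genes. It is shown for Lamp1, which holds the most copies of the TFEB core, and for Lamp2 and Ctsk, which fell furthest from MEF to ESC and hold none. Each line gives the 250 bases before a transcript's start (RefSeq, GRCm38.p6), 5′ to 3′ on the strand of the gene, with CACGTG in capitals. The Lamp1 bases lie at chr8:13158911-13159160 on the plus strand, the Lamp2 bases at chrX:38456461-38456710 on the minus strand and the Ctsk bases at chr3:95498960-95499209 on the plus strand.
Lamp1: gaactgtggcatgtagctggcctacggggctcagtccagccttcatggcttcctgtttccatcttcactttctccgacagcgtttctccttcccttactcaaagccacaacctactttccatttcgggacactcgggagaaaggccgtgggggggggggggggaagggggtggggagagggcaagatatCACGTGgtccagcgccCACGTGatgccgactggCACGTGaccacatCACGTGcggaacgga
Lamp2: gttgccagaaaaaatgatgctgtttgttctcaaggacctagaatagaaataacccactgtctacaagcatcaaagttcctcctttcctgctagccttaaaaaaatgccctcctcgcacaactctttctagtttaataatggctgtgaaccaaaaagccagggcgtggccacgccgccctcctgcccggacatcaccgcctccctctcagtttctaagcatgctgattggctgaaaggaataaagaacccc
Ctsk: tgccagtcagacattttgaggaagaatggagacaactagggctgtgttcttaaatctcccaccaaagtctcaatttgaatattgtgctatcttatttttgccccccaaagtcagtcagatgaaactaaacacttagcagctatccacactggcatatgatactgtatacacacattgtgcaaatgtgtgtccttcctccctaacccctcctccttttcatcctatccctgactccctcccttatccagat

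The 4 copies in Lamp1 begin 61, 45, 28 and 15 bases before the start. CACGTG was searched over windows of 300 bases, 250 before and 50 after a start, and it reads the same on both strands. It was held by 2349 of all 32851 such windows (7.15%), and 8 (0.0244%) held at least 4 copies. Among the 10 windows of the genes studied, 4 held it. Ctsd had 2 copies, beginning 245 and 98 bases before its start (tccccCACGTGacctgt and gcgtctCACGTGacccgt), and the second lies within the longer match TCACGTGA, found in 0.974% of windows. Ctsl had 1 copy at 236 bases (agaagcCACGTGctgatc) and the first of 2 Lgmn windows had 1 at 49 bases (gtctgtCACGTGgtccat). These last 2 windows lie inside the span of their genes, before a transcript that starts further in. TATAAA, searched on both strands and present in 13.6% of windows, occurred in the Ctss window and the first Lgmn window. No copy of CACGTG lay in the windows of Ctsk, Ctss, Ctsz, Ctsc and Lamp2. A match is a match of letters and shows no binding.

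Ctsb encodes cathepsin B, a cysteine protease that also cuts dipeptides from the ends of proteins (chr14:63122462-63145923, GRCm38.p6, as for all positions here). Its log2 levels were 11.59, 11.40 and 11.44 in MEF and 8.91, 8.66 and 8.96 in ESC. They were 9.69, 9.50 and 9.53 in iPS4F and 9.83, 9.55 and 9.77 in iPS6F. Every MEF array lay above every other array, every ESC array lay below every iPS array, and the iPS groups overlapped. From MEF to ESC Ctsb fell by 2.63 ± 0.12 on the log2 scale (± standard error, as for all differences here), 6.2-fold, with an adjusted p of 1.87e-12. Both kinds of iPS cells had more Ctsb signal than ESC, by 0.73 ± 0.12 in iPS4F (adjusted p = 0.000116) and 0.87 ± 0.12 in iPS6F (adjusted p = 1.78e-05). The order of the means was MEF, iPS6F, iPS4F and ESC, with no call between the iPS groups.

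Ctsk encodes cathepsin K, a collagen-degrading protease best known from bone-resorbing osteoclasts (chr3:95499210-95509387). Its levels in MEF were 9.68, 9.97 and 10.03. It was undetected on all 9 other arrays, at 4.17, 4.19 and 4.26 in ESC, 4.13, 4.19 and 4.12 in iPS4F and 4.12, 4.16 and 4.13 in iPS6F. The signal was on in fibroblasts and at background in every pluripotent sample. Since only a bound exists in those groups, Ctsk was at least 43-fold lower in ESC (adjusted p = 2.43e-17), at least 46.5-fold lower in iPS4F (adjusted p = 2.13e-17) and at least 45.2-fold lower in iPS6F (adjusted p = 2.02e-17). For such a bound, the dim gene is put on each array at its own signal or at the dimmest detected signal, whichever is brighter. Ctsk passed the filter only through MEF. Undetected on the other 9 arrays, it could be tested only because every MEF array detected it, so its calls come after that selection. Of 10 osteoclast markers 3 were tested, and their summed signal was 76.7 to 101 in MEF and 10.2 to 21.4 elsewhere. Nfatc1, a transcription factor of osteoclast formation, fell by 1.96 ± 0.12 from MEF to ESC. Tnfrsf11a, the receptor for the osteoclast-forming signal, fell by 0.63 ± 0.11, and Mmp9 was not called (-0.11, adjusted p = 0.489). Nfatc1 and Tnfrsf11a passed the filter only through MEF, so the summed signal of the tested markers leans to MEF by that choice. Whether osteoclasts have a part in the Ctsk level was not tested.

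Ctsl encodes cathepsin L, a cysteine endopeptidase (chr13:64361890-64370772). Its single probe was close to background, with 5.22, 5.02 and 5.17 in MEF, 4.85, 4.15 and 4.52 in ESC, 4.40, 4.78 and 4.40 in iPS4F and 4.85, 4.59 and 4.27 in iPS6F. It was detected on 10 of the 12 arrays, the exceptions being 1 ESC and 1 iPS6F array. The MEF arrays lay above all others, and the other 3 groups overlapped one another. Ctsl fell by 0.63 ± 0.17 from MEF to ESC (1.55-fold, adjusted p = 0.00349), by 0.61 ± 0.17 to iPS4F and by 0.57 ± 0.17 to iPS6F. At this brightness a fold is understated, and 2 of the 3 calls, those in ESC and in iPS6F, were lost when arrays were scaled by their medians and recentred, a setting added after the data were seen (-0.20 with adjusted p = 0.281 and -0.30 with adjusted p = 0.111).

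Ctsz encodes cathepsin Z, a carboxypeptidase also called cathepsin X (chr2:174427494-174439039). Its brighter probe gave 7.60, 7.53 and 7.69 in MEF and 6.40, 6.40 and 6.47 in ESC. It gave 5.85, 5.77 and 5.82 in iPS4F and 6.49, 6.29 and 6.06 in iPS6F. Here iPS4F was the lowest group, with no overlap with ESC or iPS6F, while ESC and iPS6F overlapped. Ctsz fell by 1.18 ± 0.11 from MEF to ESC (2.26-fold, adjusted p = 4.75e-08) and was a further 0.61 ± 0.11 lower in iPS4F than in ESC (adjusted p = 0.000367). That last call has a limit, since scaling arrays by their medians instead of by quantiles turned it to 0.05 (adjusted p = 0.874). With the added recentring the call stood. A second probe had 7.62, 7.21 and 7.46 in MEF, 6.51, 6.48 and 6.50 in ESC, 5.65, 5.52 and 6.03 in iPS4F and 6.25, 6.29 and 6.22 in iPS6F. It gave the same group order and was 0.76 ± 0.13 lower in iPS4F than in ESC (log2 difference -0.76, adjusted p = 0.00029).

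Ctsc encodes cathepsin C, or dipeptidyl peptidase 1, which trims and so activates the serine proteases of immune cell granules (chr7:88278024-88315861). It was the one gene of the 8 that was higher in pluripotent cells. The levels were 4.44, 4.37 and 4.38 in MEF, with detection on 1 array only, and 5.71, 5.71 and 5.85 in ESC. They were 6.28, 6.34 and 6.18 in iPS4F and 6.44, 6.40 and 6.05 in iPS6F. MEF lay below every other array, ESC lay below every iPS array and the iPS groups overlapped. Ctsc rose by 1.36 ± 0.11 from MEF to ESC (2.56-fold, adjusted p = 9.37e-09). It was 0.51 ± 0.11 higher in iPS4F than in ESC (adjusted p = 0.00188) and 0.54 ± 0.11 higher in iPS6F (adjusted p = 0.00104). A second Ctsc probe was also higher in ESC than in MEF, by 0.51 ± 0.13 (adjusted p = 0.00229), and higher in both iPS groups than in ESC, by 0.48 and 0.54. The dimmest probe was undetected on every MEF array, which leaves a bound of at least 1.08-fold for ESC (adjusted p = 0.0374), and it was not called in either iPS group against ESC (adjusted p = 0.163 and 0.0574).

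Lgmn encodes legumain, which cuts after asparagine and processes other cathepsins (chr12:102394082-102439728). Its levels were 8.40, 8.33 and 8.26 in MEF and 7.89, 7.56 and 7.70 in ESC. They were 7.91, 8.14 and 8.34 in iPS4F and 8.37, 8.32 and 8.40 in iPS6F. ESC was the low group, below every array of the others, and both iPS groups overlapped MEF. Lgmn fell by 0.61 ± 0.12 from MEF to ESC (1.53-fold, adjusted p = 0.000216). Against MEF the difference was -0.20 in iPS4F (95% interval -0.46 to 0.06) and 0.03 in iPS6F (95% interval -0.22 to 0.29), neither called. It was higher than in ESC by 0.65 ± 0.12 in iPS6F (adjusted p = 0.000394) and by 0.41 ± 0.12 in iPS4F (adjusted p = 0.0115). The iPS4F call against ESC was lost without ESC array 2 (0.33, adjusted p = 0.057) or without iPS4F array 3 (0.31, adjusted p = 0.0668), and without the latter Lgmn was called lower in iPS4F than in MEF (-0.30, adjusted p = 0.0382).

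Ctsd, the aspartic protease cathepsin D (chr7:142375910-142387827), and Ctss, the cathepsin of antigen-presenting cells (chr3:95526786-95556405), were undetected on all 12 arrays. The Ctsd probe lay between 4.09 and 4.41, and the Ctss probe between 4.14 and 4.34. Neither gene was tested. The values say only that these single probes gave no signal above background. Ctss is the direct neighbour of Ctsk on chromosome 3, so of these adjacent genes one had a MEF signal near 10 and the other none above background.

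Lamp1, a main protein of the lysosomal membrane (chr8:13159161-13175338), had levels of 11.44, 11.71 and 11.66 in MEF and 10.69, 10.64 and 10.86 in ESC. The levels were 9.67, 9.84 and 10.01 in iPS4F and 9.997, 9.99 and 10.07 in iPS6F. The arrays fell into 3 steps without overlap, MEF above ESC and ESC above both iPS groups, which overlapped each other. Lamp1 fell by 0.88 ± 0.12 from MEF to ESC (1.84-fold, adjusted p = 2.79e-06). It was lower still in iPS4F by a log2 difference of -0.89 ± 0.12 against ESC (adjusted p = 1.63e-05) and in iPS6F by -0.71 ± 0.12 (adjusted p = 0.000116). Scaling by array medians ended both calls, with -0.25 (adjusted p = 0.39) and -0.49 (adjusted p = 0.134). With the added recentring both calls stood. The genes of chromosome 8 were also shifted between these groups. Over its 540 tested genes the median difference was -0.38 in iPS4F against ESC and -0.41 in iPS6F against ESC, while the 9200 genes of the other autosomes had medians of -0.04 and -0.06. In ESC against MEF, where Lamp1 fell, the chromosome's median was 0.41 and that of the other autosomes 0.07, so the median of the chromosome was higher in ESC than in each of the other groups. Lamp1 lay 0.51 and 0.30 further down than its chromosome (differences from the median of -0.51 and -0.30), and 17% and 30.6% of the chromosome's genes had lower values. Whether the shift of the chromosome has a part in the Lamp1 difference was not tested.

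Lamp2, its relative, of which one splice form takes proteins directly across the lysosomal membrane, lies on the X chromosome (chrX:38399647-38456460). The brightest of its 7 probes gave 12.38, 12.19 and 12.23 in MEF and 8.42, 8.46 and 8.58 in ESC. It gave 9.15, 9.11 and 9.17 in iPS4F and 9.37, 9.02 and 9.28 in iPS6F. MEF was far above the rest, ESC was below every iPS array and the iPS groups overlapped. It fell by 3.78 ± 0.11 from MEF to ESC (13.8-fold, adjusted p = 7.16e-15), second to Ctsk among the 8 genes. Lamp2 was 0.66 ± 0.11 higher in iPS4F than in ESC (adjusted p = 0.000176) and 0.74 ± 0.11 higher in iPS6F (adjusted p = 5.33e-05). ESC were a mix of female and male cells and the iPS cells male. The 335 tested genes of the X chromosome had median differences of -0.04 and -0.06 in these comparisons, and 90.1% and 91% of them had lower values than Lamp2.

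Most of the other Lamp2 probes gave the same pattern. Of the 7 probes 6 passed the filter. Besides the brightest, 3 probes were detected on all 12 arrays, and their log2 differences between ESC and MEF were -3.49, -4.09 and -3.31. Against ESC all 3 were called higher, by 0.61, 0.39 and 0.94 for iPS4F and by 0.67, 0.82 and 0.98 for iPS6F. Another probe was detected in MEF only, at 5.53, 5.48 and 5.68, and was at least 2.13-fold lower in ESC. It passed the filter only through MEF. The remaining probe that passed, ILMN_2577206, taken from a cDNA clone in the platform annotation, went another way. It had 4.21, 4.51 and 4.45 in MEF, 4.12, 4.91 and 4.46 in ESC, 4.76, 5.24 and 4.41 in iPS4F and 4.54, 5.21 and 5.21 in iPS6F. It did not pass the test between ESC and MEF (0.11 ± 0.23, adjusted p = 0.695) and was 0.60 ± 0.23 higher in iPS6F than in MEF (adjusted p = 0.0258).

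**Figure D2:**
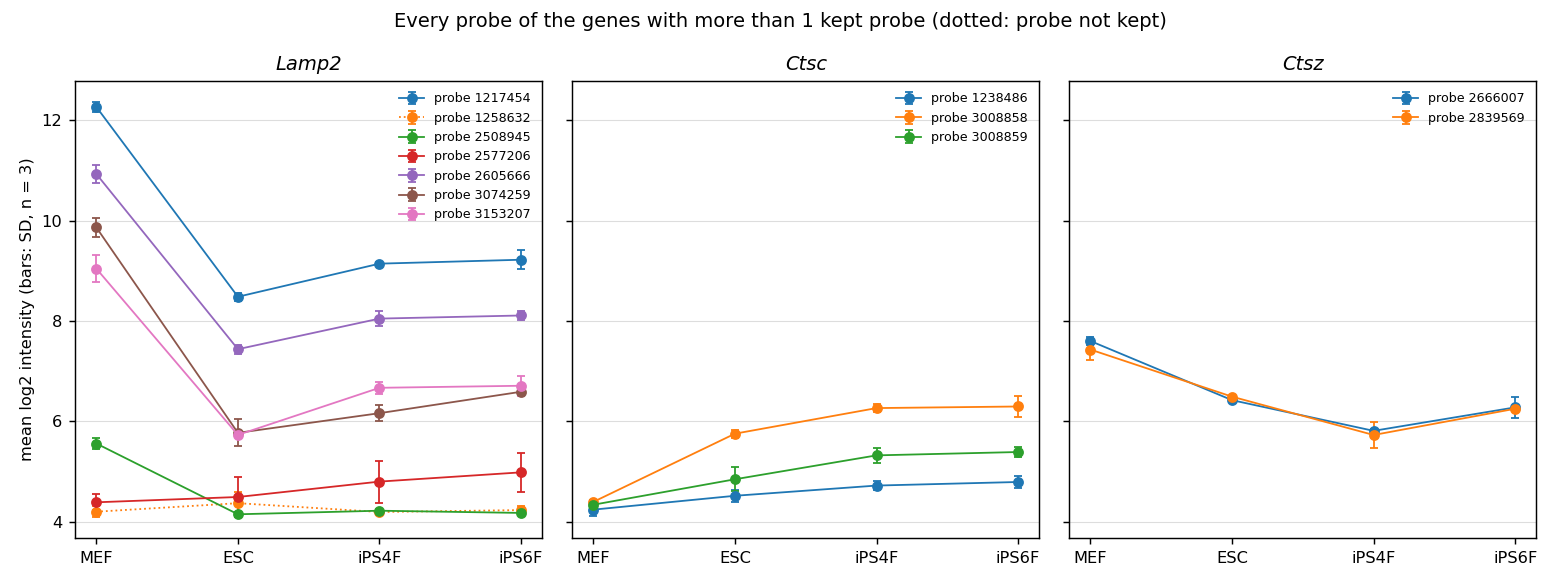
Mean log2 intensity (vertical axis; bars are SD, n = 3 arrays) in each group for every probe of Lamp2, Ctsc and Ctsz; the lines join the means of one probe, and dotted lines mark a probe that did not pass the filter. The 4 bright Lamp2 probes drop from MEF to ESC and are higher in both iPS groups, all 3 Ctsc probes are lowest in MEF, and both Ctsz probes are lowest in iPS4F.

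Set against ESC, the iPS cells differed in 6 of the 8 genes for iPS4F and in 5 for iPS6F. Ctsb, Ctsc, Lamp2 and Lgmn were higher in both, Lamp1 was lower in both, and Ctsz was lower in iPS4F. Of all genes, 42.7% were called in iPS4F against ESC, 17.8% higher and 24.9% lower, and 45.8% in iPS6F against ESC, 17.8% higher and 28% lower. The median of the 8 genes was 0.22 in iPS4F and 0.30 in iPS6F, against -0.05 and -0.07 over all genes. With arrays scaled by their medians, 4 of the 8 genes were called in each comparison, all higher, beside 41.3% of all genes in iPS4F and 20.8% in iPS6F, of which 94.5% and 76.5% were higher, and the median over all genes moved to 0.39 in iPS4F against ESC and 0.09 in iPS6F against ESC. Both comparisons share the ESC arrays. For Ctsz in iPS6F the difference from ESC was -0.14, with a 95% interval of -0.38 to 0.09. Ctsk was at background in all 3 groups, and Ctsl differed from ESC by 0.02 (95% interval -0.35 to 0.39) in iPS4F and by 0.06 (95% interval -0.30 to 0.43) in iPS6F.

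**Figure D3:**
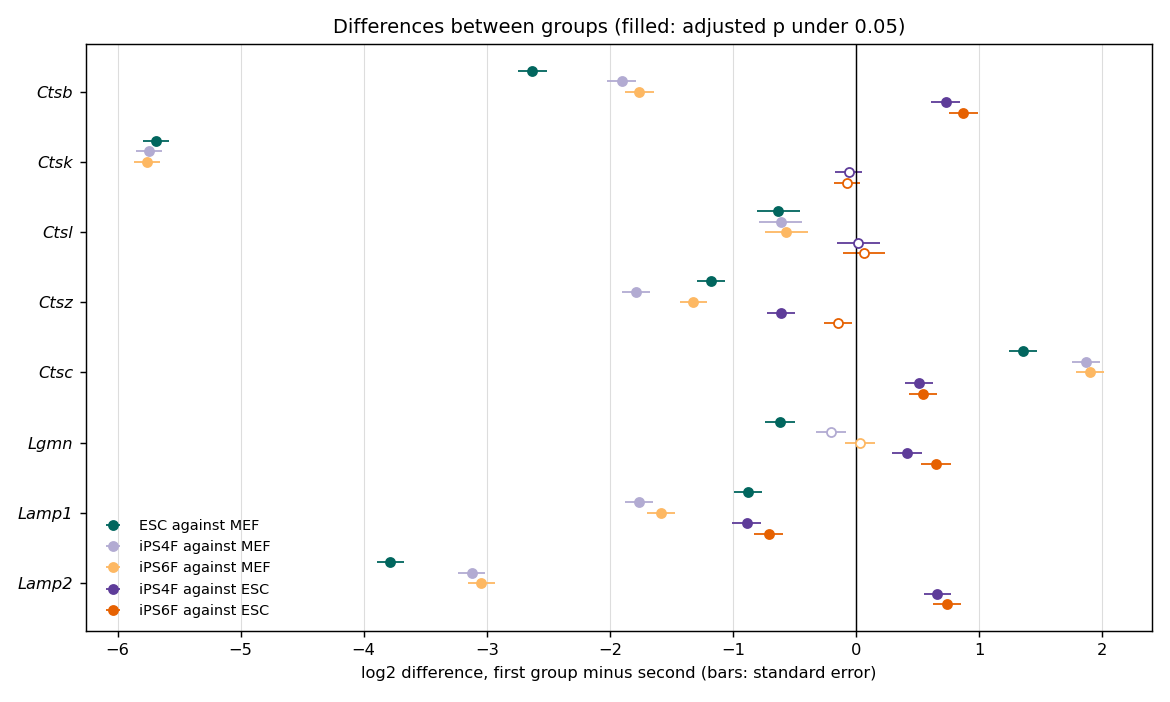
Log2 difference between groups (horizontal axis; bars are the standard error) for the 8 tested genes in 5 comparisons; filled points have an adjusted p under 0.05. All genes but Ctsc lie left of 0 in ESC against MEF, with Lgmn at -0.61 and Lamp2 at -3.78, and with Ctsk drawn against background, where only a bound of at least 43-fold holds; Ctsb, Ctsc, Lgmn and Lamp2 lie right of 0 in both iPS groups against ESC.

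The genes also stood at different points of the way from MEF to ESC. As a percentage of the log2 distance from the MEF mean to the ESC mean, iPS4F and iPS6F stood at 72.3% and 66.9% for Ctsb and at 82.6% and 80.5% for Lamp2. Lgmn stood at 32.5% in iPS4F and at -5.55% in iPS6F, and neither group was called against MEF (differences of -0.20 and 0.03). Lamp1 was at 201% and 181%, Ctsz at 152% and 112% and Ctsc at 138% and 140%. Ctsz in iPS6F was not called against ESC, and the calls of Lamp1 in both iPS groups and of Ctsz in iPS4F ended under median scaling, as above. Fibroblast markers gave a summed signal of 186 to 201 in iPS4F and 111 to 142 in iPS6F, against 103 to 122 in ESC. Against ESC, 4 of the 17 fibroblast markers (23.5%) were called higher for iPS4F and 3 (17.6%) for iPS6F, beside 17.8% of all genes in each comparison. Bgn was higher by 1.35 ± 0.16 and 0.60 ± 0.16, while Lox, which no ESC array detected, had bounds of at least 1.86-fold for iPS4F and at least 1.24-fold for iPS6F. On every iPS4F array 9 of the 17 were undetected and on every iPS6F array 10, Col1a1 and Col3a1 among them. Their part in the higher Ctsb, Lamp2 and Lgmn signal of iPS cells was not tested.

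Between iPS6F and iPS4F none of the 8 genes was called by limma, where 1.16% of all genes were, 117 of 10096. Of these 8 genes Ctsz had the smallest p. Its difference of 0.47 ± 0.11 (unadjusted p = 0.000727, adjusted p = 0.0574) separated the arrays of the 2 groups without overlap, which was not counted over all genes. It was past the threshold with the mean of both probes (0.50, adjusted p = 0.0299) and without iPS6F array 3 (0.58, adjusted p = 0.0324). The 95% intervals of the other differences were -0.11 to 0.39 for Ctsb, -0.21 to 0.27 for Ctsc, -0.32 to 0.41 for Ctsl, -0.07 to 0.42 for Lamp1, -0.16 to 0.31 for Lamp2 and -0.02 to 0.49 for Lgmn. Ctsk was undetected in both groups.

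Other lysosomal genes were followed in lists by their role, and a share in brackets is of the genes of the list that were tested. Of all genes, 36.3% were lower and 40.3% higher in ESC than in MEF, the background for each list. Of 7 tested genes among other cathepsins and tripeptidyl peptidase 1, 5 were lower and 1 was higher in ESC than in MEF, with a median of -1.38. Tpp1, a peptidase lost in a childhood storage disease, fell by 1.99 ± 0.17. Ctsa, which shields neuraminidase and beta-galactosidase in the lysosome, fell by 1.71 ± 0.17, and Ctsh, an aminopeptidase, by 1.59 ± 0.20. The mean of the kept Ctsa probes gave a smaller difference of -0.75 ± 0.10. Probes detected at p under 0.01 on all 12 arrays gave -0.72 ± 0.14 for Ctsa. Ctsw, a cathepsin of killer lymphocytes, was undetected in MEF and at least 1.73-fold higher in ESC. In iPS cells Ctsa was called higher. It was 1.74 ± 0.17 higher in iPS4F than in ESC and 2.07 ± 0.17 higher in iPS6F, and its mean level was 6.77 for MEF, 5.06 for ESC, 6.81 for iPS4F and 7.13 for iPS6F. The size depends on the probe, since the mean of the kept Ctsa probes gave 0.57 ± 0.10 in iPS4F and 0.69 ± 0.10 in iPS6F. With probes detected at p under 0.01 on all 12 arrays Ctsa gave 0.35 (adjusted p = 0.038) in iPS4F and 0.22 (adjusted p = 0.182, not called) in iPS6F. Ctse, an aspartic protease, was lower in both iPS groups, by log2 differences of -1.27 and -1.33. Against ESC, this list had 1 gene (14.3%) higher and 3 (42.9%) lower for iPS4F, beside 17.8% and 24.9% of all genes. For iPS6F 1 (14.3%) was higher and 2 (28.6%) were lower, beside 17.8% and 28% of all genes.

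Among 4 tested inhibitors and Cd74, 3 were lower in ESC than in MEF. Cst3, the secreted cystatin C, fell by 2.55 ± 0.13, and Serpinb6a, an intracellular serpin, by 1.16 ± 0.13. Cstb, the cytosolic cystatin B, fell by 0.30 ± 0.13 with overlapping groups and was 0.71 ± 0.13 higher in iPS4F and 0.57 ± 0.13 higher in iPS6F than in ESC. With arrays scaled by their medians and recentred, an added setting, the Cstb difference between ESC and MEF turned to 0.24 (adjusted p = 0.149). The call between ESC and MEF was also lost in 4 of the 6 fits that left out 1 array, those without ESC array 1 or 2 or MEF array 2 or 3, with differences of -0.43 to -0.22 over all 6.

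Of 29 tested hydrolases of sugars, lipids and other substrates, 19 (65.5%) were lower and 4 (13.8%) higher in ESC than in MEF, with a median of -0.88. Arsb, a sulfatase of glycosaminoglycans, was undetected in ESC and at least 15.8-fold lower there. It passed the filter only through MEF. Lipa, the acid lipase, fell by 3.14 ± 0.15 and Ppt1, a thioesterase, by 2.53 ± 0.17. Manba, the beta-mannosidase, rose by 2.56 ± 0.10, and Dnase2a, an acid DNase, by 1.78 ± 0.18, or by 0.70 ± 0.12 with the mean of its probes. The Dnase2a call was lost with probes detected at p under 0.01 on all 12 arrays (0.26, adjusted p = 0.116). Acp2, an acid phosphatase, was 1.67 higher by its brightest probe, but the mean of its probes gave -0.90 (adjusted p = 1.93e-07). Against ESC, 6 hydrolases (20.7%) were higher and 5 (17.2%) lower in iPS4F, beside 17.8% and 24.9% of all genes. In iPS6F 4 (13.8%) were higher and 7 (24.1%) lower, beside 17.8% and 28%. Hyal2, a hyaluronidase, was lower by log2 differences of -1.53 and -1.37.

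Of 26 other membrane proteins tested, 17 (65.4%) were lower and 4 (15.4%) higher in ESC than in MEF, with a median of -0.61. Cd63, a tetraspanin, fell by 3.00 ± 0.11, Laptm4a fell by 2.85 ± 0.15 and Sidt2 fell by 1.78 ± 0.10. Laptm5, known from blood cells, rose by 1.29 ± 0.12, Cln3 by 1.12 ± 0.15 and the metal transporter Slc11a1 by 0.92 ± 0.19. The Slc11a1 call ended with the mean of its probes (0.15, adjusted p = 0.124) and under median scaling (0.49, adjusted p = 0.158). It stood with the added recentring (0.977, adjusted p = 0.000116). In iPS4F against ESC 6 (23.1%) were higher and 5 (19.2%) lower, beside 17.8% and 24.9% of all genes. In iPS6F against ESC 8 (30.8%) were higher and 7 (26.9%) lower, beside 17.8% and 28% of all genes. Ostm1, a partner of the chloride exchanger of lysosomes, was 0.73 ± 0.10 and 1.12 ± 0.10 higher. Mcoln1, a calcium channel of the lysosome, was 0.67 and 0.64 higher.

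Of 17 tested subunits and partners of the proton pump, 7 (41.2%) were lower, beside 36.3% of all genes, 2 (11.8%) were higher and 8 were not called in ESC against MEF, with a median of -0.30. Atp6ap1 fell by 1.94 ± 0.13 and Atp6v0a2 by 1.60 ± 0.14, and Atp6v1b2 rose by 0.98 ± 0.12. Of 25 tested genes that sort enzymes to lysosomes, 12 (48%) were lower and 5 (20%) higher, with a median of -0.32. Igf2r, the large mannose 6-phosphate receptor, fell by 2.66 ± 0.15 and Sort1, another sorting receptor, by 1.50 ± 0.11. The adaptors Gga3 and Ap1g1 rose by 1.47 ± 0.12 and 1.10 ± 0.13. Sorting genes were called lower in 11 cases (44%) and higher in 3 (12%) for iPS4F against ESC, beside 24.9% and 17.8% of all genes. For iPS6F against ESC 12 (48%) were lower and 2 (8%) higher, beside 28% and 17.8% of all genes. Among them Ap1g1 and Ap1m1 were lower in both, Ap1g1 by -1.003 and -1.07 and Ap1m1 by -0.87 and -1.10 (log2 differences). Both calls in iPS4F ended under median scaling (adjusted p = 0.318 for Ap1g1 and 0.525 for Ap1m1). With the added recentring they stood, at -0.889 (adjusted p = 0.00011) and -0.732 (adjusted p = 0.000176). Under median scaling without recentring 94.5% of all genes called in iPS4F against ESC were higher, so the direction of such counts depends on the scaling.

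Of 15 tested regulators of lysosomes, 7 (46.7%) were lower and 6 (40%) higher in ESC than in MEF, with a median of -0.09, beside 36.3% and 40.3% of all genes. The Rag GTPases, which bring the mTOR kinase to the lysosome, went both ways. Rragc fell by 1.68 ± 0.13, while Rragb rose by 1.46 ± 0.14 and Rragd by 0.99 ± 0.11. Mtor itself rose by 0.94 ± 0.12, a call that ended under median scaling (0.49, adjusted p = 0.119). With the added recentring the Mtor call stood (0.975, adjusted p = 6.49e-06). Tfe3, a relative of TFEB, was lower in iPS4F than in ESC by -0.53 ± 0.14 (log2 difference, adjusted p = 0.00461), and median scaling turned this to 0.12 (adjusted p = 0.665). Against ESC, 2 regulators (13.3%) were higher and 3 (20%) lower for iPS4F, beside 17.8% and 24.9% of all genes. For iPS6F 0 were higher and 5 (33.3%) lower, beside 17.8% and 28% of all genes. Between iPS6F and iPS4F limma called 3 genes over all 7 lists, which had 7, 4, 29, 26, 17, 25 and 15 tested genes. Of all genes 1.16% were called. The 3 genes were all in the sorting list, 1 higher (4% of its 25) and 2 lower (8%). They are named here after their values were seen. Ap1s1, an adaptor subunit, was 0.64 ± 0.13 higher (adjusted p = 0.026). Sort1 and Vps35, a subunit of the retromer, were lower, by log2 differences of -0.59 ± 0.11 (adjusted p = 0.0176) and -1.11 ± 0.13 (adjusted p = 0.000175).

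**Figure D4:**
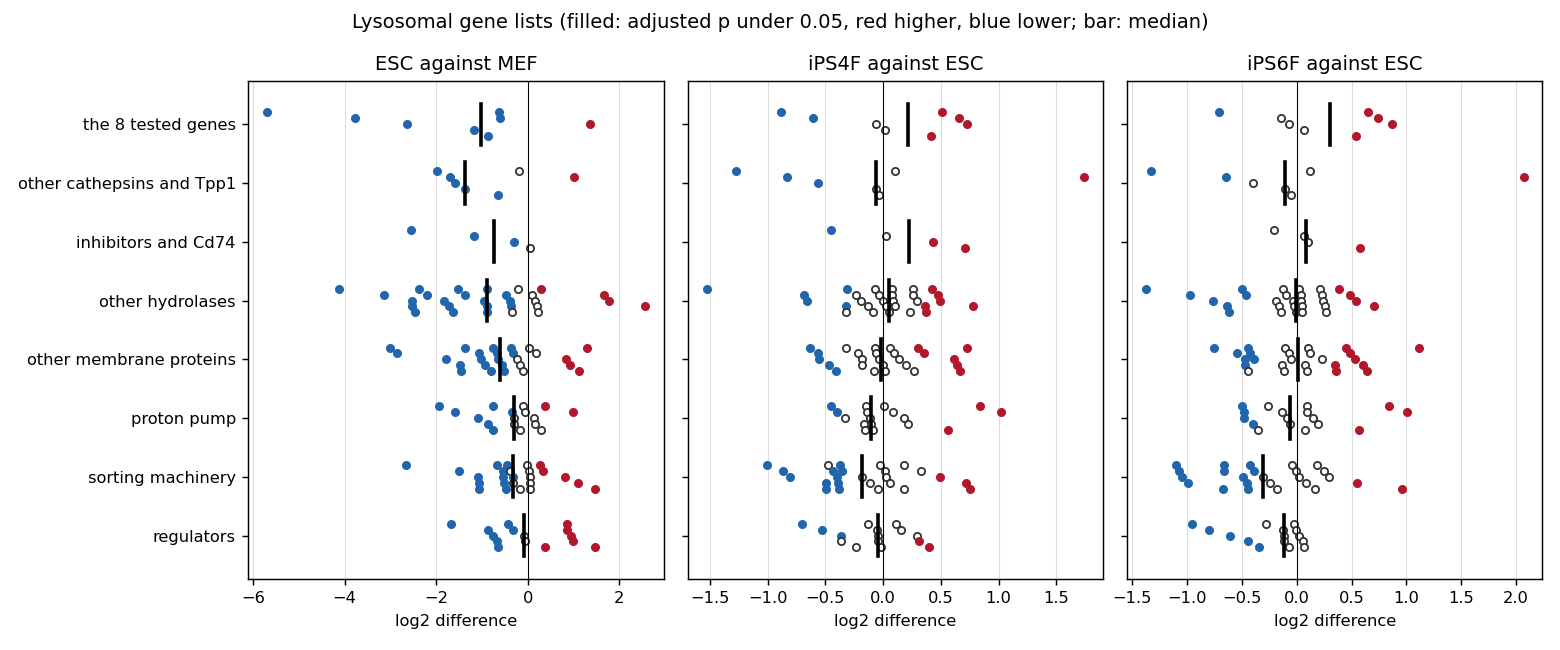
Log2 difference (horizontal axis) of every tested gene of the 8 groups of lysosomal genes in 3 comparisons; filled points have an adjusted p under 0.05, red for higher and blue for lower, and the bar is the median of the group. In ESC against MEF the medians run from -1.38 for the other cathepsins to -0.09 for the regulators, and against ESC both iPS groups scatter around 0 with Ctsa furthest right.

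Macrophages are rich in cathepsins, and most of their markers were higher in MEF. Of 20 macrophage markers 15 were tested. From MEF to ESC 13 (86.7%) fell, beside 36.3% of all genes, and 1 was not called. Laptm5 rose by 1.29 ± 0.12 (6.67% of the markers, beside 40.3% of all genes). All 15 were detected on every MEF array and 2 to 4 on the other arrays. Testing needed detection on all 3 arrays of some group. A marker undetected in the other groups was therefore bound to be detected on every MEF array. In ESC 10 of the 15 were undetected on all arrays, in iPS4F 9 and in iPS6F 10. The summed signal was 1680 to 1950 in MEF, 1150 to 1460 in ESC, 1890 to 1940 in iPS4F and 1740 to 2060 in iPS6F, most of it from Laptm5 outside MEF. Without Laptm5 it was 1160 to 1530 in MEF, 49.1 to 57.4 in ESC, 35.2 to 43.6 in iPS4F and 40.1 to 52.5 in iPS6F. Lyz2, the macrophage lysozyme, had a mean of 9.61 ± 0.40 (SD, n = 3) in MEF with no ESC array above background. C1qb, a complement subunit, was at 7.16 there. The defining markers Adgre1, Csf1r and Tyrobp were detected on all MEF arrays at means of 5.34, 4.78 and 4.90, near background, and Ctss was undetected there. The part of such cells in the higher cathepsin signal of MEF was not tested. Of 12 endoderm markers 6 were tested, with a summed signal of 3620 to 4100 in MEF and 289 to 470 elsewhere. From MEF to ESC 5 of them (83.3%) fell and 1 (16.7%) rose, beside 36.3% and 40.3% of all genes.

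The genes whose profiles over the 12 arrays lay nearest to those of the 8 genes were found by the root mean square (RMS) of the difference between profiles, each centred on its own mean. This is a description with no test. Ctsk was nearest to Rbms3 (RMS 0.0891 log2 units), Scara3 (0.0935) and Olfml3 (0.117), and Lamp2 to Fhl1 (0.182), Tdrd7 (0.211) and Itm2b (0.22). Ctsb was nearest to Spag9 (0.153), Tmem59 (0.171) and Crtap (0.173). Ctsz was nearest to Leprot (0.103), Sec31a (0.145) and Serpinb6a (0.152), the last being one of the inhibitors above. Lamp1 was nearest to Aldh18a1 (0.112), Elf4 (0.15) and Tm2d2 (0.154). Lgmn was nearest to Spg21 (0.0981), Prdx3 (0.114) and Atp6v1g1 (0.117), the last a proton pump subunit. Ctsc was nearest to Srrt (0.114), Ccp110 (0.115) and Rlf (0.123), and Ctsl to Ptgfrn (0.145), Tmf1 (0.155) and Ppp1r3b (0.157). None of the 8 genes was among the 3 nearest of another. Ctsz was at rank 129 for Lamp1 and Lamp1 at rank 163 for Ctsz, the closest such ranks.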

How the data were processed

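RNA of 12 samples was amplified into biotin-labelled cRNA and hybridised to Illumina bead arrays, per the labels' protocols. The deposited table holds the intensity of each probe, neither normalized nor background-subtracted, and a detection p-value, per the file headers. A second table of the authors holds log2 values. BeadStudio 3.2, RMA and lumi were used, per the submitters' processing notes, with no role stated for each.

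The 10 genes and all lists were chosen with earlier results of these data known. Intensities were background-corrected from the detection p-values, given an offset of 16, quantile-normalized and put on a log2 scale with limma's neqc (limma 3.58.1, R 4.3.3). The offset understates folds of dim genes. Probes passed the filter, 17563 in number, where any group had a detection p below 0.05 throughout its 3 arrays. The brightest kept probe stood for a gene. Names are from the platform annotation, in which 34885 probes had 1 symbol, 18 several and 10378 none here. One model with 4 group means was fitted to all 12 arrays (lmFit, eBayes), with Benjamini-Hochberg adjustment over 10096 genes in each of 6 comparisons and a threshold of 0.05. Further probes of a gene were tested in a fit over all kept probes. The number of arrays limits the precision.

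Named genes were all 10 genes with every probe, from each list up to 3 genes of highest and 3 of lowest difference in ESC against MEF and up to 2 each way for each kind of iPS cell against ESC, and the 3 nearest profiles of each gene. Of those the text gives a selection. Promoter sequences and positions come from RefSeq (GRCm38.p6). Alternatives changed the background correction, normalization, values, filter, probe rule, samples fitted and replicates. Figures were drawn with matplotlib 3.10.9.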

Additional observations from a re-analysis of the deposited data

Results flagged for a closer look

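Signal appeared in 2 probes that had not passed the filter on dim signals and are in no comparison. The second Ctsb probe (ILMN_2593604) was detected on 2 arrays, 1 MEF array at 4.44 and 1 iPS6F array at 4.51, against 4.16 to 4.25 on the other 10 arrays. The seventh Lamp2 probe (ILMN_1258632) was detected on 2 arrays, both ESC, at 4.45 and 4.55, against 4.09 to 4.31 on the other 10 arrays. No group had detection on all 3 of its arrays, so neither probe was tested.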

How the results depend on the processing

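Of 750 differences of the 8 genes under the alternatives, 737 kept their side of the threshold, 6 lost a call, 5 gained one and 2 reversed. A change of sign was counted as a reversal only where either fit called the difference. Uncalled differences that changed sign, such as Ctsl in iPS4F against ESC (-0.158 to 0.192 when leaving out 1 array), are among the 737. Those that reversed were Ctsz in iPS4F against ESC under median scaling (0.0514) and the near-background Ctsl in the same comparison under the added recentred scaling (-0.407). The list genes here are only named ones, called and among the most extreme of their list in the fit used above. They do not stand for all tested list genes. Of their 1461 differences 1372 kept direction and call, 80 lost the call and 9 reversed. Under median scaling these were Atp6v1c1 in ESC against MEF (-0.0784) and, in iPS4F against ESC, Serpinb6a (0.197), Atp6v1b2 (0.205), Atp6v0d1 (0.248) and Tfe3 (0.119). With the mean of all kept probes they were Acp2 in ESC against MEF (-0.901) and Atp6v0d1 in iPS4F and iPS6F against ESC (0.504 and 0.535), and under recentred scaling Cstb in ESC against MEF (0.236).

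Median scaling moved the share of called genes that were higher from 41.7% to 94.5% in iPS4F against ESC, from 38.9% to 76.5% in iPS6F against ESC, from 52.6% to 37.9% in ESC against MEF and from 34.2% to 7.14% in iPS6F against iPS4F. The median over all genes moved to 0.387, 0.0911, -0.141 and -0.292 in these comparisons, and to 0.241 in iPS4F against MEF. In iPS6F against ESC it called 2098 genes, 1606 higher and 492 lower, where the count had been 4625. In iPS6F against iPS4F the count of 117 genes became 42 under median scaling, 47 with the authors' log2 values, 46 with only those groups fitted, and 44 to 193 when leaving out 1 array, the highest without iPS4F array 3. The strict filter, detection p under 0.01 on all 12 arrays, tested 5982 genes and 5 of the 8, and by that construction left 4774, 4779 and 4813 calls over all genes and 5, 4 and 4 of the 5 in ESC, iPS4F and iPS6F against MEF. In iPS6F against iPS4F the count was 1 (Ctsz) with the strict filter and with the mean of probes, and 0 to 1 when leaving out 1 array. In the other cases the cause was not tested.

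A fit with the replicate number as a replicate block called 8, 7, 7, 6, 5 and 0 of the 8 genes, the same counts as without it, and 7740, 7945, 7923, 4289, 4645 and 94 over all genes. Deviations from the group means of same-numbered samples had 18 correlations of -0.176 to 0.14 (median 0.0211, 3 over 0.1). The 36 correlations of samples with other numbers were -0.188 to 0.191 (median -0.00451, 3 over 0.1). For 1 of 12 samples the same-numbered sample was the closest in every other group. These values do not decide whether same-numbered samples were handled together. The slide could not be used as a block, since the headers name none. Signal over background limits Ctsl and the MEF level of Ctsc.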
